A study of Aspergillus nidulans with 12 samples.

Results

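The terrequinone genes of Aspergillus nidulans, a filamentous fungus, were examined in RNA-seq counts from 12 cultures. Members were chosen by gene identifier: tdiA (AN8513), tdiB (AN8514), tdiC (AN8515), tdiD (AN8516) and tdiE (AN8517). Of these 5, only 3 were found by identifier among the 10681 genes analysed: tdiA, tdiB and tdiD. No row was found under the identifiers of tdiC and tdiE, so these genes are not analysed here under theirs. Wild type (A1153) was harvested after 17 h and 48 h, the strain that the labels call a rimO deletion (drim2.4) after 17 h and 54 h, and the one they call rimO overexpression (Oegr_3) after 17 h and 48 h, giving 6 groups of 2 cultures. The labels name no promoter for the overexpression and no further allele. The liquid medium (AMM) held glucose at 50 mM and nitrate at 10 mM, and cultures were kept at 37 °C. The late harvest was set at 8 h past glucose depletion, which came later in the deletion strain because it took glucose up more slowly, so strain and hour cannot be told apart in its late harvest.

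Terrequinone A is a bis-indolylquinone built from tryptophan. TdiD, an aminotransferase, turns tryptophan into indole pyruvic acid, and TdiA, an enzyme of the non-ribosomal peptide synthetase type, joins a pair of these molecules into a quinone core. TdiC, a reductase, and TdiB, a prenyltransferase that uses dimethylallyl diphosphate, lead on to terrequinone A, with TdiE also needed. The cluster is known as one that depends on LaeA, a nuclear regulator of fungal secondary metabolism. Rim15-type kinases, to which RimO belongs by the series title, act in nutrient signalling in yeast.

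The libraries held 9269951 to 17891416 counts. AN7572, taken for rimO from general knowledge, is given in CPM, counts scaled by library total multiplied by edgeR's TMM scaling factor. This factor ran from 0.843 in wild type replicate 2 at 17 h to 1.196 in overexpression replicate 2 at 48 h. Wild type libraries had 99.8 and 109 CPM early and 447 and 437 CPM late. Those labelled deletion kept reads, with 60.5 and 67.4 CPM early and 51.6 and 48.4 CPM late. Those labelled overexpression had 588 and 504 CPM early but only 322 and 357 CPM late, below late wild type (log2 change -0.38 ± 0.09, adjusted p = 0.0047 in edgeR's quasi-likelihood test, and adjusted p = 0.0514 without overexpression replicate 1 at 48 h). Strains are therefore named by their labels, and at the late harvest the label overexpression goes against the counts of this gene.

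The 3 tdi genes were far higher in 2 of the 6 groups, wild type and overexpression at 48 h, than elsewhere. tdiA stood at 13.7 and 13.5 CPM in wild type at 48 h and at 20.2 and 21.6 CPM in overexpression at 48 h. In the deletion strain at 54 h it stood at 0 and 0.245 CPM, and the 17 h libraries of all strains held 0 to 0.350 CPM. The 2 late groups of wild type and overexpression lay far above the other 8 libraries and did not overlap each other. Below them, neighbouring groups overlapped, except that both wild type libraries at 17 h, with 1 read in all, lay below both deletion libraries at 17 h, with 1 read each. In bulk RNA, fewer cells that transcribe a gene and less RNA per cell cannot be told apart.

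tdiB stood at 26.2 and 23.9 CPM in wild type at 48 h and at 37.1 and 42.8 CPM in overexpression at 48 h. At 17 h its libraries held 0.467 to 0.925 CPM in all strains, and in deletion at 54 h they held 0.222 and 0 CPM, the lowest group. The order of tdiB levels thus put the late deletion group last, with no overlap with wild type at 17 h, which stood next above it. The 3 groups at 17 h overlapped.

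tdiD stood at 4.06 and 4.59 CPM in wild type at 48 h and at 12.5 and 12.8 CPM in overexpression at 48 h. No read was counted for it in wild type or deletion at 17 h, which allows up to 0.118 and 0.125 CPM (3 counts over the group). It held 0.132 and 0 CPM in overexpression at 17 h and 0.167 and 0.0614 CPM in deletion at 54 h. Wild type and overexpression at 48 h again did not overlap, and the 4 low groups overlapped their neighbours.

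**Figure D1:**
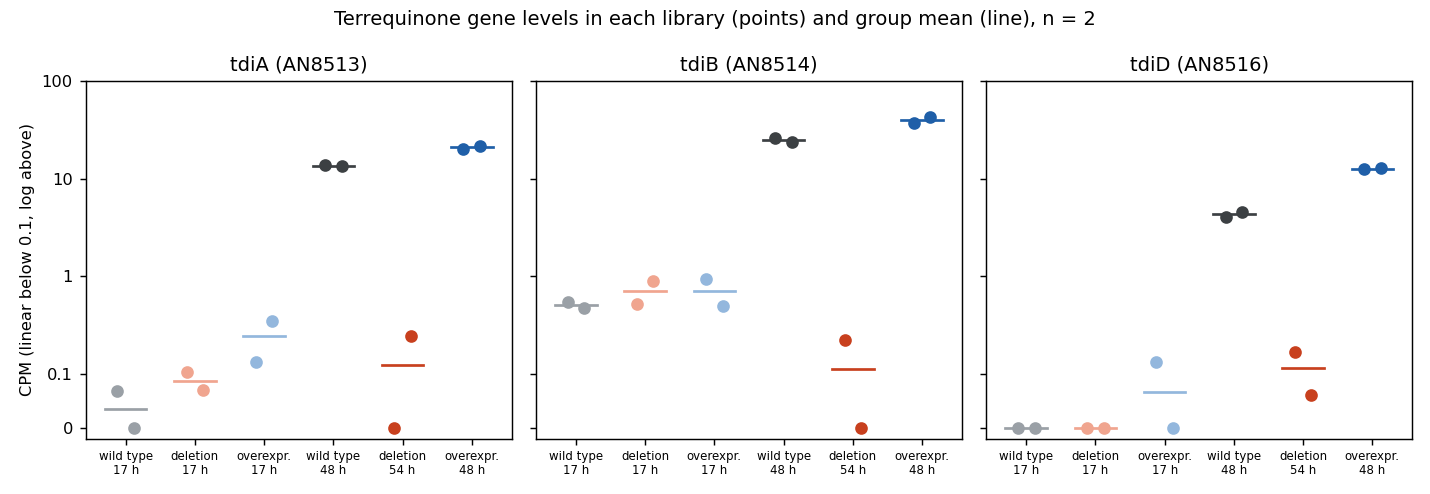
Levels of tdiA, tdiB and tdiD in CPM (vertical axis, linear below 0.1 and logarithmic above) in the 6 groups, with each library as a point and the mean of the 2 libraries as a line. Both late wild type libraries and both late overexpression libraries lie above 4 CPM for every gene shown, and all others lie below 1 CPM.

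All 3 genes passed the filter on low counts, but only through the 2 late groups in which they were high: when the deletion libraries alone were fitted, none of the 3 passed. A count of calls among them is therefore not support for a pattern, and each gene is given with the share of all tested genes called the same way. Tests are edgeR's quasi-likelihood test on counts of 9670 genes in 12 libraries, with log2 changes ± SE and Benjamini-Hochberg adjusted p, called under 0.05.

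The late harvest of wild type was compared with 17 h to follow the cluster from growth on glucose to glucose exhaustion. In this comparison 40.3% of all tested genes were called higher, and the 3 tdi genes were among them. tdiB rose by 5.60 ± 0.30 (adjusted p = 1.86e-10), from 0.504 ± 0.0534 to 25.1 ± 1.63 CPM (SD, n = 2). tdiA went from 1 read over both libraries at 17 h to 477 reads at 48 h, a ratio of 346 with a 95% counting interval of 61.8 to 13701 (adjusted p = 1.23e-09). tdiD was at least 36.8-fold higher at 48 h, counted against 3 reads over the 17 h group (adjusted p = 2.37e-07).

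In the overexpression strain 38.2% of tested genes were called higher at 48 h than at 17 h. tdiB rose by 5.79 ± 0.26 (adjusted p = 3.72e-11) and tdiA by 6.41 ± 0.36 (adjusted p = 3.72e-10), while tdiD went from 2 to 403 reads, a ratio of 185 with a counting interval of 51.0 to 1536 (adjusted p = 6.48e-09). Whether this late change differed from that of wild type was tested as an interaction, in which 28.9% of all genes were called. None of the 3 tdi genes was called by edgeR or DESeq2, nor had an unadjusted p under 0.05 in edgeR. The difference was -1.75 ± 1.25 for tdiA (adjusted p = 0.324) and 0.19 ± 0.61 for tdiB (adjusted p = 0.856), and no size is given for tdiD, which had no read in wild type at 17 h. Few reads at 17 h lie behind these values, and the test does not show that the strains changed alike.

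From 17 h to 54 h in the deletion strain, no tdi gene was called higher, on 0 to 18 reads a group. tdiB fell by 2.59 ± 0.72 (adjusted p = 0.00442), from 18 reads over both libraries to 4, in a comparison where 39.3% of all genes were called lower. That call was lost without deletion replicate 2 at 17 h (adjusted p = 0.0822), and the log2 change ranged from -6.47 to -1.68 as each library was left out. tdiA had 2 reads at 17 h and 4 at 54 h, a ratio of 1.40 with a counting interval of 0.201 to 15.5 (adjusted p = 0.738), and tdiD had 0 and 4 reads (adjusted p = 0.0668), with reads in both late libraries and in neither early one.

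Late deletion was set against late wild type, the harvests matched by time since glucose depletion. The tdi genes were lower by far, in a comparison where 39.8% of all genes were called lower and 40.2% higher. The log2 change was -7.65 ± 0.35 for tdiB (adjusted p = 6.28e-11), -6.76 ± 0.40 for tdiA (adjusted p = 1.08e-09) and -5.12 ± 0.45 for tdiD (adjusted p = 3.65e-07). The deletion libraries held 4 reads in all for each of these genes, against 879, 477 and 152 in wild type. From the reads alone, the ratios had 95% counting intervals of 83.6 to 790 for tdiB, 45.2 to 430 for tdiA and 14.2 to 138 for tdiD, which overlap, so the order of the 3 genes in this difference is not resolved. Intervals cover counting error only.

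As an interaction, the late-minus-early change in deletion less that in wild type was -8.19 ± 0.83 for tdiB (adjusted p = 8.7e-07) and -7.71 ± 2.13 for tdiA (adjusted p = 0.00549), in a test that called 32.8% of all genes in this direction. For tdiD no size is given, since neither strain had a read at 17 h. It was not called by edgeR in this interaction but was called by DESeq2. Set directly against each other at the late harvest, overexpression exceeded deletion by 8.32 ± 0.34 for tdiB (adjusted p = 1.65e-11), 7.38 ± 0.38 for tdiA (adjusted p = 2.55e-10) and 6.66 ± 0.39 for tdiD (adjusted p = 7.46e-09), while 40.9% of all genes were called higher.

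At 48 h the overexpression strain held more tdi transcript than wild type. tdiD was higher by 1.54 ± 0.22 (adjusted p = 0.000148), tdiB by 0.67 ± 0.16 (adjusted p = 0.00426) and tdiA by 0.62 ± 0.19 (adjusted p = 0.0203), where 23% of all genes were called higher. When any single library of these groups was left out, tdiA was no longer called (adjusted p = 0.0601 to 0.0841), with a log2 change of 0.57 to 0.67.

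The members were also set against each other by ratios of reads within a library, which no scaling between libraries can move. There were 0.155 and 0.192 tdiD reads per tdiB read in wild type at 48 h, and 0.336 and 0.299 in overexpression at 48 h. Against tdiA reads the tdiD ratio was 0.297 and 0.340 in wild type and 0.618 and 0.592 in overexpression. The groups did not overlap for either ratio. The ratio of tdiA to tdiB reads was 0.522 and 0.564 in wild type and 0.544 and 0.505 in overexpression, which overlap. With 2 libraries against 2, an exact two-sided permutation test cannot give a p below 0.333, so these ratios are a description.

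At 17 h no tdi gene was called between strains. In deletion against wild type, where 1.66% of all genes were called, tdiB differed by 0.54 ± 0.57 (adjusted p = 0.794) and tdiA by 0.94 ± 1.58 (adjusted p = 0.888). In overexpression against wild type, where 29.5% were called, tdiB differed by 0.48 ± 0.55 (adjusted p = 0.556) and tdiA by 2.37 ± 1.23 (adjusted p = 0.165), with 7 tdiA reads against 1. In overexpression against deletion, where 30.5% were called, tdiB differed by -0.06 ± 0.51 (adjusted p = 0.949) and tdiA by 1.43 ± 1.07 (adjusted p = 0.342). No fold is given for tdiD, which held 2 reads in overexpression and none in the other strains.

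The run of genes around the members was then read in the order of the reference annotation, which places AN8518 between tdiB and tdiD and AN8520 next after tdiD. Neither identifier is among the members, and the sources used here name neither gene. Whether they are tdiC and tdiE under other identifiers could not be settled here, so AN8518 and AN8520 may be genes of the cluster or neighbours of it, and they are described by identifier. AN8512 lies next before tdiA. AN8518 stood at 32.9 and 22.3 CPM in wild type at 48 h, 30.5 and 44.6 CPM in overexpression at 48 h and 9.16 and 10.2 CPM in deletion at 54 h. Its late deletion level thus lay between the other late groups and every 17 h library, the highest of which held 1.61 CPM.

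AN8518 rose in the deletion strain by 4.39 ± 0.45 from 17 h to 54 h (adjusted p = 4.26e-07), where 41.3% of all genes were called higher and none of tdiA, tdiB and tdiD was. Against late wild type its log2 change was -1.51 ± 0.22 (adjusted p = 2.31e-05). In overexpression at 48 h its difference from wild type was 0.43 ± 0.20 (adjusted p = 0.112), which was called without wild type replicate 1 or overexpression replicate 1 at 48 h (adjusted p = 0.0238 and 0.0295).

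AN8520 stood at 8.99 and 10.3 CPM in wild type at 48 h, 14.6 and 20.7 CPM in overexpression at 48 h, and 0.944 and 1.23 CPM in deletion at 54 h. It rose within the deletion strain by 2.33 ± 0.54 (adjusted p = 0.00108) and was lower than in late wild type (log2 change -3.15 ± 0.25, adjusted p = 2.59e-08). In overexpression at 48 h it was higher than wild type by 0.85 ± 0.18 (adjusted p = 0.00162). In the deletion strain its late and early libraries did not overlap, but the late ones overlapped those of overexpression at 17 h, at 1.19 and 1.33 CPM.

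Both of these genes were called higher in overexpression than in wild type already at 17 h, as were 15.1% of all genes. AN8520 was higher by 2.38 ± 0.51 (adjusted p = 0.00273), with 37 reads against 6, and AN8518 by 2.95 ± 0.76 (adjusted p = 0.00972), with 46 against 5. The AN8518 call was lost without wild type replicate 2 at 17 h, the library with no read for it (adjusted p = 0.0608). Against deletion at 17 h, where 15.6% of all genes were called higher, AN8520 was higher by 2.55 ± 0.53 (adjusted p = 0.00232), while AN8518 differed by 1.76 ± 0.64 (adjusted p = 0.051, and 0.00573 in DESeq2).

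AN8512, on the other flank, moved the opposite way from early to late in wild type and in late deletion against wild type. Wild type had 8.68 and 8.40 CPM of it early but 0.232 and 0.224 CPM late (log2 change -5.18 ± 0.31, adjusted p = 8.84e-10). Deletion had 11.2 and 9.35 CPM early and still 9.10 and 7.43 CPM late (log2 change -0.30 ± 0.18, adjusted p = 0.136). At the late harvest it was thus higher in deletion than in wild type by 5.13 ± 0.31 (adjusted p = 1.34e-09). Late overexpression differed from late wild type by -0.51 for AN8512, on 5 reads against 8, which was not called, while the tdi genes were called higher there. In overexpression at 17 h it held 2.11 and 2.10 CPM, less than wild type (log2 change -2.02 ± 0.22, adjusted p = 1.13e-05), where 14.5% of all genes were called lower. Farther out, AN8510 and AN8511 held at most 5 and 9 reads in any library and did not pass the filter. The counting is not stated to use strand, so reads of overlapping neighbours cannot be told apart.

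**Figure D2:**
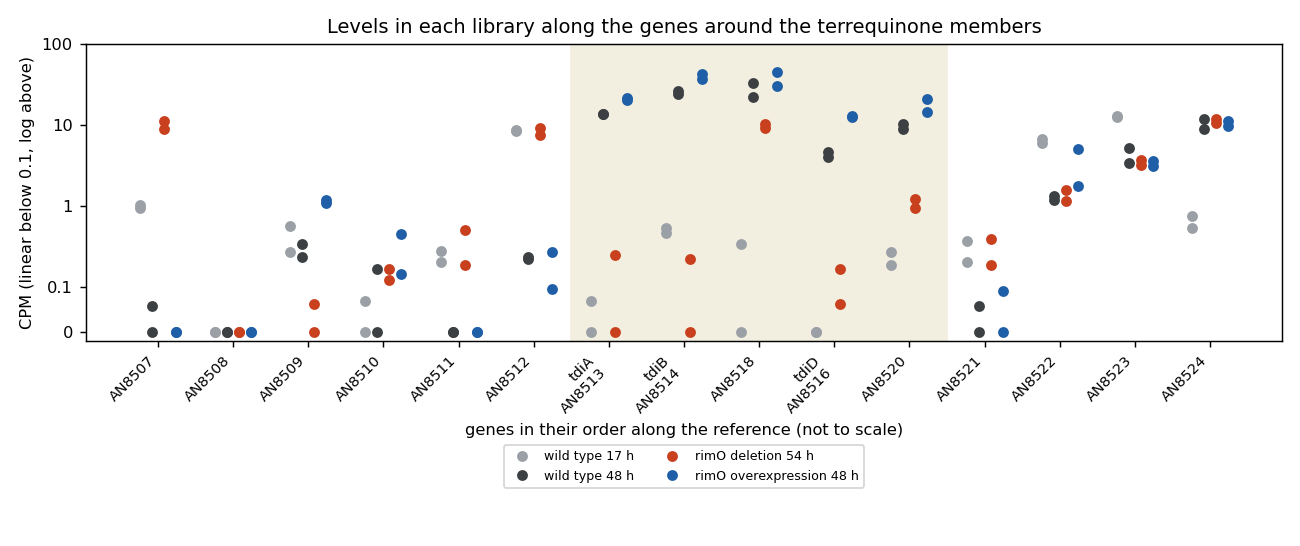
CPM of each library (points, vertical axis linear below 0.1 and logarithmic above) for genes in their order along the reference, in wild type at 17 h and the 3 late groups; the shaded block runs from tdiA to AN8520. In the late deletion libraries AN8518 stands at 9.16 and 10.2 CPM while tdiA, tdiB and tdiD stand below 0.3 CPM, and AN8512 is high where the tdi genes are low.

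**Figure D3:**
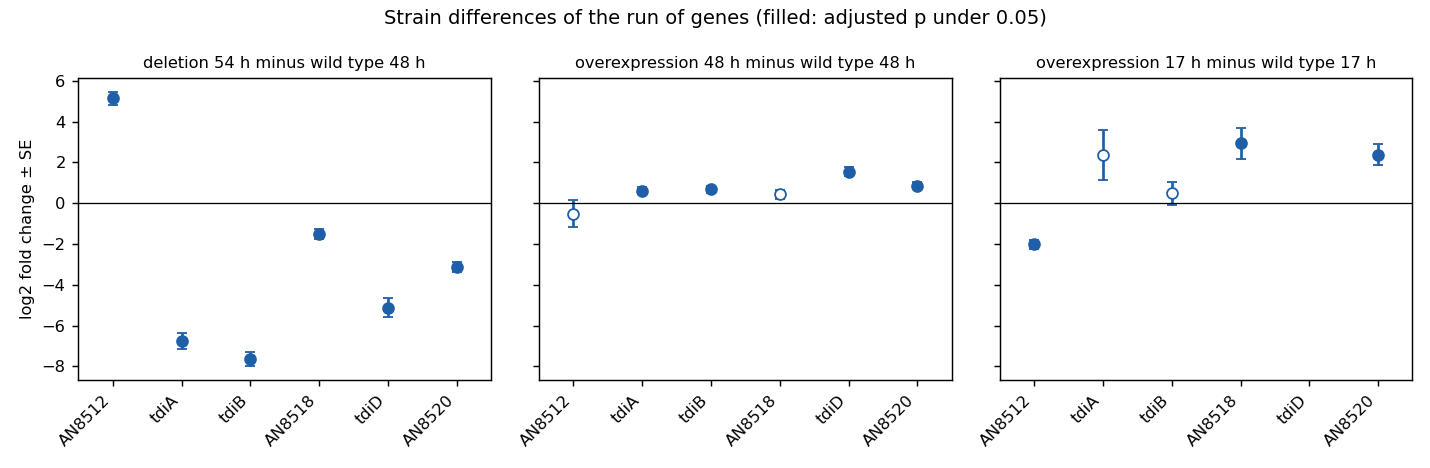
Log2 fold change ± SE (vertical axis) of AN8512, the tdi genes, AN8518 and AN8520 in 3 strain comparisons, with filled points at an adjusted p under 0.05. tdiD is not drawn for 17 h, where wild type held no read, and the wide bar of tdiA there rests on 8 reads in all (7 against 1).

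Across the 12 libraries the members' log2 CPM correlated with each other at Pearson r = 0.94 to 0.97, as a description, since all values share the contrast between high late groups and low others. AN8520 correlated with tdiA at r = 0.95, tdiB at 0.86 and tdiD at 0.96, and AN8518 at 0.82, 0.67 and 0.85. AN8512 correlated with tdiA at r = -0.96.

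Levels can be compared between genes only per length. In the authors' deposited table of log2 RPKM, 1 value per group, wild type at 48 h had 4.30 for tdiB, 2.02 for tdiA and 1.25 for tdiD, against a median of 3.85 over all 10681 genes. In overexpression at 48 h the authors' deposited table gives 5.01 for tdiB, 2.74 for tdiA and 2.86 for tdiD, so that tdiD reached the level of tdiA. By the authors' deposited table, 57.0% of genes lay below tdiB in wild type at 48 h and 69.1% in overexpression at 48 h, against 5.10% in deletion at 54 h. In the authors' deposited table tdiA lay above 31.6% of genes and tdiD above 26.7% in wild type at 48 h, so both stood below the median gene even there. Its values near -5 stand for groups with few or no reads and rest on an offset that is not stated.

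**Figure D4:**
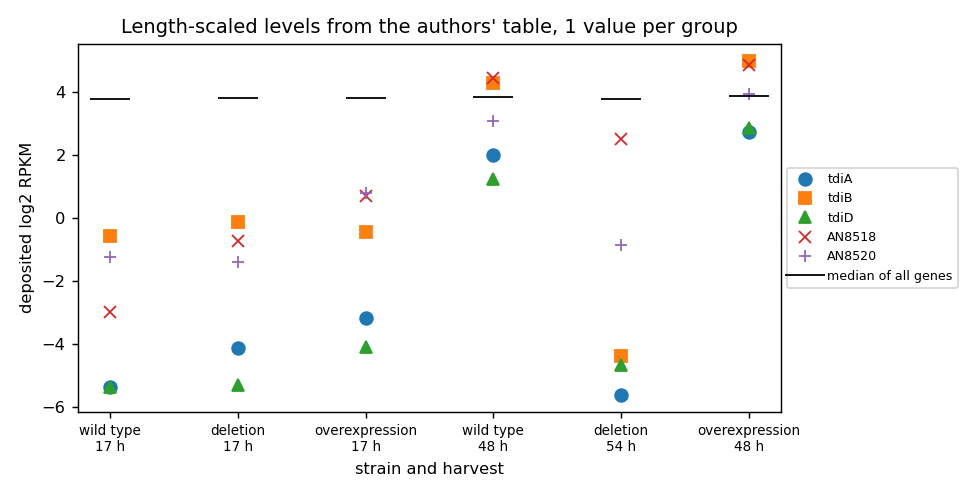
Log2 RPKM per group (vertical axis) from the authors' deposited table for the tdi genes, AN8518 and AN8520, with the median of all genes as a bar. Only tdiB and AN8518 stand above that median in wild type at 48 h, and in deletion at 54 h AN8518 stands at 2.52 while the tdi genes stand below -4.

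Regulators of secondary metabolism were given as a list of 15 genes, all tested. At the late harvest 4 were higher and 3 lower in deletion than in wild type (median log2 change -0.11, against -0.01 over all genes), where 40.2% and 39.8% of all genes were called. In overexpression 5 were higher and 2 lower (median 0.22, against 0.06), where 23% and 18.1% of all genes were called. laeA (AN0807), the regulator on which the cluster is known to depend, stood at 50.2 and 51.3 CPM in wild type at 48 h, 38.7 and 35.1 CPM in deletion at 54 h and 130 and 114 CPM in overexpression at 48 h. These 3 groups did not overlap, and their order was that of the tdi genes. laeA was lower in late deletion (log2 change -0.46 ± 0.09, adjusted p = 0.000246) and higher in late overexpression (1.27 ± 0.08, adjusted p = 4.49e-08). At 17 h laeA was also called higher in overexpression than in wild type (log2 change 0.49), as were 15.1% of all genes. No tdi gene was called there. The part of laeA in the tdi differences was not tested.

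Within the deletion strain laeA rose by 0.72 ± 0.10 from 17 h to 54 h (adjusted p = 7.18e-06), to a level above all 17 h libraries. veA (AN1052), which encodes the velvet protein that binds LaeA, changed by -0.43 ± 0.08 in late deletion (adjusted p = 0.000184) and by 0.57 ± 0.08 in late overexpression (adjusted p = 5.47e-05). velB (AN0363), another velvet gene, moved the other way, higher by 0.65 ± 0.09 in late deletion (adjusted p = 8.66e-06) and changed by -0.33 ± 0.09 in late overexpression (adjusted p = 0.0117, and 0.0831 at most over the alternatives). AN8694 of the same list differed by -0.22 ± 0.12 in late deletion (adjusted p = 0.095) and changed by -0.45 ± 0.12 in late overexpression (adjusted p = 0.00818, and 0.0858 at most over the alternatives).

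Markers of asexual development, which a late culture could hold, mostly differed between strains at the late harvest as the cluster did. Of 8 markers, 7 were lower in late deletion than in wild type and 6 were higher in late overexpression, with 0 called the other way (median log2 change -2.02 and 0.77, against -0.01 and 0.06 over all genes, of which 39.8% and 23% were called in these directions). The 2 markers not called in overexpression had values below 0, -0.53 ± 0.20 for the spore wall gene dewA (AN8006, adjusted p = 0.0507) and -0.15 ± 0.17 for AN8209 (adjusted p = 0.516). From 17 h to 54 h in the deletion strain, 3 of the 8 were called higher and 2 lower, while no tdi gene was called higher. The median log2 change of the 8 was 0.48, against 0.06 over all genes, of which 41.3% and 39.3% were called. The summed level of the 8 markers was 1022 and 1588 CPM in wild type and 3936 and 3942 CPM in overexpression at 48 h. It was 37.4 CPM in each deletion library at 54 h and 27.8 to 33.2 CPM at 17 h. No marker was at 0 in any library. Most of the late sum came from rodA, at 1070 ± 370 CPM in wild type and 3588 ± 10.2 CPM in overexpression. brlA (AN0973), the switch of conidiation, changed by -5.71 ± 0.16 in late deletion (adjusted p = 3.81e-13) and by 0.53 ± 0.11 in late overexpression (adjusted p = 0.00148). The spore hydrophobin gene rodA (AN8803) changed by -10.69 ± 0.30 (adjusted p = 4.52e-13) and by 1.75 ± 0.18 (adjusted p = 2.56e-06), and the spore maturation gene wetA (AN1937) by -2.27 ± 0.30 (adjusted p = 7e-06) and by 1.00 ± 0.22 (adjusted p = 0.00211). Their part in the tdi differences was not tested.

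Listed genes of the pathways of the precursors, tryptophan and dimethylallyl diphosphate, were mostly lower late in every strain. This includes deletion, where no tdi gene was called higher. All 10 listed genes of the shikimate, tryptophan and mevalonate pathways were lower at 48 h than at 17 h in wild type (median log2 change -1.23, against -0.04 over all genes, of which 43% were called lower). The log2 change was -3.33 ± 0.09 for erg20 (AN8012, adjusted p = 1.33e-13), whose product uses up dimethylallyl diphosphate, -2.96 ± 0.14 for erg13 (AN4923, HMG-CoA synthase, adjusted p = 6.69e-11) and -2.16 ± 0.09 for trpB (AN6231, tryptophan synthase, adjusted p = 1.49e-11). The other 7, AN0708, trpC, trpE, hmg1, erg12, erg8 and idi1, changed by -1.95 to -0.42. Within deletion 9 of the 10 were lower late and 1 higher (median -1.15, against 0.06 over all genes). There, 39.3% of all genes were called lower and 41.3% higher. Within overexpression the median of the 10 was -1.05, against -0.10 over all genes.

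At the late harvest 5 of the 10 were higher in deletion than in wild type and 2 lower (median 0.15, against -0.01), near the 40.2% of all genes called higher and below the 39.8% called lower. Late trpB was at 108 ± 1.71 CPM in deletion against 59.1 ± 8.31 CPM in wild type (SD, n = 2; log2 change of 0.88 ± 0.09, adjusted p = 4.88e-07), and erg13 at 227 ± 37.9 against 47.1 ± 9.39 CPM (2.27 ± 0.14, adjusted p = 1.82e-09). idi1 (AN0579), whose product makes dimethylallyl diphosphate, changed by -0.93 ± 0.10 (adjusted p = 9.82e-07). The other gene called lower was trpC (log2 change -0.35), which like the tdi genes was higher in late overexpression, as given below. The trpE call among the 5 was lost without wild type replicate 2 at 48 h or deletion replicate 2 at 54 h (adjusted p = 0.446 and 0.189). In late overexpression 1 gene was higher and 1 lower than in wild type: trpC (AN0648) by 0.23 ± 0.07 (adjusted p = 0.0207, and 0.0998 at most over the alternatives) and AN0708 by -0.61 ± 0.15 (adjusted p = 0.00498, and 0.103 at most).

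The genes outside the cluster with the pattern most like the members were found by Pearson correlation of log2 CPM over the 12 libraries with the mean standardised profile of the 3 tdi genes. They were AN4871 (r = 0.998), AN2544 (0.997), AN5762 (0.996), AN8351 (0.996) and AN10482 (0.995), and the sources used here name none of them. AN4871 stood at 3034 ± 168 CPM in wild type and 6314 ± 731 CPM in overexpression at 48 h, and at 40.7 ± 0.167 CPM in deletion at 54 h. AN2544 and AN8351 held no read in either deletion group, and 225 and 73 reads in wild type at 48 h. AN8520 ranked 566 and AN8518 ranked 1853 among the 9667 other genes on this measure, so many genes elsewhere were more like tdiA, tdiB and tdiD on this measure, whether or not AN8518 and AN8520 belong to the cluster. None of the 5 was among the first 5 by Spearman's rho, and 2 were by Pearson's r over the 6 group means.

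The tdi genes were set beside the sterigmatocystin genes, a mycotoxin cluster that is also known to depend on LaeA. All 21 of these were lower in late deletion than in wild type (median log2 change -7.69, against -0.01 over all genes, of which 39.8% were called lower). In late overexpression they went the other way from the tdi genes, with 18 lower, 1 higher and 2 not called (median -0.66, against 0.06 over all genes, of which 18.1% were called lower), where tdiA, tdiB and tdiD were higher. The difference between the gene groups was not tested.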

How the data were processed

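RNA counts of 12 libraries (poly(A) RNA, Nextera kit, per the labels) were used. Per the submitters' processing notes, Trimmomatic, BWA, HTSeq, limma and edgeR were run; versions, genome build and strandedness are not given in the sources used here. The authors deposited whole-number counts per gene and library, and log2 RPKM per group with no value per culture; changes in the latter followed log2 CPM with a slope of 1.01 (r = 0.991) over 6840 genes. Of 10727 entries, 15 repeated identifiers and 31 upstream open reading frames (0.000199% of counts) were left out. Pooled over genes, squared differences between cultures of a group were 10.3 to 49.5 times those of counting error alone (chi-square per degree of freedom). This pooled value does not describe genes with few reads. The 2 libraries of a group are duplicate cultures per the labels, so p-values measure the spread between cultures.

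Counts were tested with edgeR 4.0.16 in R 4.3.3: TMM scaling, filterByExpr (9670 genes kept), 1 quasi-likelihood fit of 6 groups (6 residual degrees of freedom) and 11 contrasts, adjusted by Benjamini-Hochberg over all genes tested. The SE is the change over the square root of F and can be too small where reads are few. The alternatives tried were scaling by RLE or by upper quartile, DESeq2 1.42.0 in place of edgeR, no filter, a filter of 5 CPM in 2 libraries, a replicate block, fits of only the groups compared, and each library left out.

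Members and lists were chosen with earlier results of these data known. Genes named are the members, the 3 identifiers on each side, AN7572, laeA, veA, velB, AN8694, the precursor list, brlA, wetA, rodA and the 5 most like genes; AN8507, AN8524, dewA and AN8209 were named after their values were seen. List identifiers come from general knowledge, and symbols from the reference gene table (assembly ASM1142v1, 9967 genes matched), used for names and gene order only. The precursor list asked for HMG-CoA reductase as hmgA, which the reference calls hmg1; hmg1 was kept, and the unrelated hmgA was not.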

Additional observations from a re-analysis of the deposited data

Results flagged for a closer look

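The late-minus-early change differed from that of wild type, by the interaction test of edgeR, for these genes. In deletion the difference was -7.71 for tdiA (adjusted p = 0.00549) and -8.19 for tdiB (adjusted p = 8.7e-07), -2.70 for AN8518 (adjusted p = 0.0382), -2.97 for AN8520 (adjusted p = 0.011) and 4.88 for AN8512 (adjusted p = 5.91e-08). In overexpression it was -2.52 for AN8518 (adjusted p = 0.0316). The AN8518 calls each rest on few reads at 17 h: that in deletion was lost without wild type replicate 2 at 17 h, deletion replicate 2 at 17 h or deletion replicate 1 at 54 h (adjusted p = 0.108, 0.292 and 0.0573), and that in overexpression without wild type replicate 2 or either overexpression replicate at 17 h (adjusted p = 0.14, 0.0644 and 0.077) or with only the groups compared in the fit (-2.48, adjusted p = 0.0593). The AN8520 call was lost without deletion replicate 2 at 17 h (adjusted p = 0.0761). For tdiA the highest adjusted p over all alternatives was 0.0411.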

How the results depend on the processing

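The late differences of tdiA, tdiB and tdiD between deletion and wild type and between overexpression and deletion kept their direction and call under every alternative run, as did their rise in wild type and overexpression. For deletion against wild type the log2 change ranged over -10.74 to -5.74 for tdiA, -11.53 to -6.87 for tdiB and -5.96 to -4.73 for tdiD. With only the deletion groups fitted, no tdi gene passed the filter, so 0 in place of 1 was called between its harvests, and 0 to 1 when each library was left out. Leaving out a library gave 16 to 113 calls over all genes in deletion against wild type at 17 h, against 161, and 1782 to 2283 in overexpression against wild type at 17 h, against 2854.

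Directions of differences that were not called turned in some fits with a library left out, where reads are few. The ranges over these fits were -0.38 to 0.15 for AN8520 in deletion against wild type at 17 h, -3.40 to 1.47 for tdiA within deletion, -0.60 to 0.46 for tdiB in overexpression against deletion at 17 h and -0.060 to 0.85 against wild type at 17 h. They were -1.18 to 0.24 for AN8512 in late overexpression, and -0.19 to 0.73 for tdiB in the overexpression interaction. The cause was not tested.

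RLE and upper-quartile scaling moved the median of all genes by 0.10 and 0.19 in late against early wild type and by 0.14 and 0.20 in overexpression, far less than the tdi changes. Replicates 1 and 2 were numbered by sample order, since the titles give only culture numbers, so a pairing of cultures could not be tested. Same-numbered deviations correlated over 0.1 for 1 of 15 pairs of groups (-0.15 to 0.10). With replicate as a block, no call of a tdi gene changed, and AN8520 was called in the overexpression interaction (-1.50, adjusted p = 0.038, against adjusted p = 0.0555).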

Other observations

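Farther along the run, AN8507, which like AN8524 was named after its values were seen, stood highest in late deletion: 10.0 ± 1.56 CPM there, against 0.029 ± 0.041 CPM in wild type at 48 h, 0 in overexpression at 48 h and at most 0.975 ± 0.0588 CPM in any 17 h group (n = 2). On the side of AN8520, AN8524 stood at 10.3 ± 2.16 CPM in wild type, 11.3 ± 0.882 CPM in deletion and 10.5 ± 1.07 CPM in overexpression at the late harvest. Of the 19 listed neighbours, AN8518 and AN8520 included, 14 were tested; at the late harvest 6 were higher and 4 lower in deletion than in wild type (median log2 change 0.14, against -0.01 over all genes), where 40.2% and 39.8% of all genes were called.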
